A study of Caenorhabditis elegans with 10 samples.

Results

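The genes of 3 giant muscle proteins, of dim-1 and of the muscle regulator hlh-1 of Caenorhabditis elegans were followed through 3 deposited lists of heterochromatin protein peaks. The genes were chosen by name, with the peaks of these lists already known: unc-22, ttn-1, unc-89, dim-1 and hlh-1, 5 of the 19971 protein-coding genes on the 6 nuclear chromosomes. A peak was assigned to a gene when it overlapped the gene body, or 1 kb on either side of it, by at least 1 bp (WBcel235). This gave 8 of the 1346 peaks of HPL-1 in intestine, 7 of the 1665 peaks of HPL-2 in intestine and 17 of the 1572 peaks of HPL-2 in hypodermis. Since the peaks guided the choice, every value at these genes is a description and carries no test.

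The series profiled L4 larvae by DamID-seq, in which a fusion to the DNA adenine methyltransferase Dam marks GATC sites near the places the protein visits. The 10 libraries fell into 5 groups of 2 by their titles: HPL-1::Dam in intestine (strain MRS579), HPL-2::Dam in intestine (MRS580), HPL-2::Dam in hypodermis (MRS578), and the GFP::Dam controls in intestine (BN1051) and hypodermis (BN561). All were grown for 48 h at 20 °C after bleaching. Each group is 1 strain, and neither the promoters that restrict expression to a tissue nor the source of the replicates (separate cultures or not) is given in the sources used here. Each deposited list is, by its file name, an average relative to Dam, and how many libraries it averages is not stated. The file names carry the mark R3, while GEO attaches each to the library titled rep1. No value has a replicate error, and by the labels both intestine fusions have the same control group. Peak lists hold no expression, so the labelled tissues could not be checked by markers.

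HPL-1 and HPL-2 are the worm homologues of heterochromatin protein 1, which binds histone H3 methylated on lysine 9 and is found over repressed genes and repeats. The 5 genes act in muscle, a tissue in which none of the fusions was expressed by label. Twitchin, titin and obscurin are giant proteins built from repeated immunoglobulin and fibronectin type III domains. In striated muscle they run along or anchor the thick filaments, and several carry protein kinase domains near their ends. In the worm, unc-22 encodes twitchin, whose loss makes the body wall muscle twitch, ttn-1 encodes a titin-like protein, and unc-89 encodes an obscurin-related protein of the M-line, where thick filaments are cross-linked. The smaller dim-1 encodes an immunoglobulin-domain protein that lies around the dense bodies, the anchors of thin filaments, and hlh-1 encodes the worm member of the MyoD family, a basic helix-loop-helix transcription factor of muscle cells.

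Gene length differed widely among the 5. The body of ttn-1 (W06H8.8, chromosome V, 6120909 to 6202632) spans 81.7 kb and ranked 2 in length among all protein-coding genes. That of unc-89 (C09D1.1, chromosome I, 4035702 to 4090885) spans 55.2 kb and ranked 5, and that of unc-22 (ZK617.1, chromosome IV, 11972697 to 12011007) spans 38.3 kb and ranked 23. The bodies of dim-1 (C18A11.7, chromosome X, 8050466 to 8058220) and hlh-1 (B0304.1, chromosome II, 4518574 to 4522526) span 7.75 and 3.95 kb. The gene table gives no strand, exons or introns, so positions below are distances from the low-coordinate end of each gene, and a peak inside a body could not be placed in an exon or intron.

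HPL-2 in hypodermis lay at all 5 genes. In intestine HPL-1 had peaks at 4 of the 5 and HPL-2 at 4, and neither list, both called against the same GFP::Dam group, had a peak at dim-1. Of all protein-coding genes, 8.1% had a hypodermis peak under the same rule, 6.93% an HPL-1 intestine peak and 8.31% an HPL-2 intestine peak, and 1.3% had peaks in all 3 lists. Long genes offer more sequence to overlap: among the 193 protein-coding genes of 20 kb or more these shares were 35.8%, 27.5%, 41.5% and 14.5%. Intestinal HPL-1, intestinal HPL-2 and hypodermal HPL-2 covered 5.08, 4.10 and 16.2 kb of the 186.9 kb of the gene bodies. These amounts are 2.72%, 2.19% and 8.67%, and the corresponding shares over all protein-coding gene bodies were 0.994%, 1.69% and 1.89%. The map of peaks by gene shows that this sequence was not spread evenly within the long genes.

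**Figure D1:**
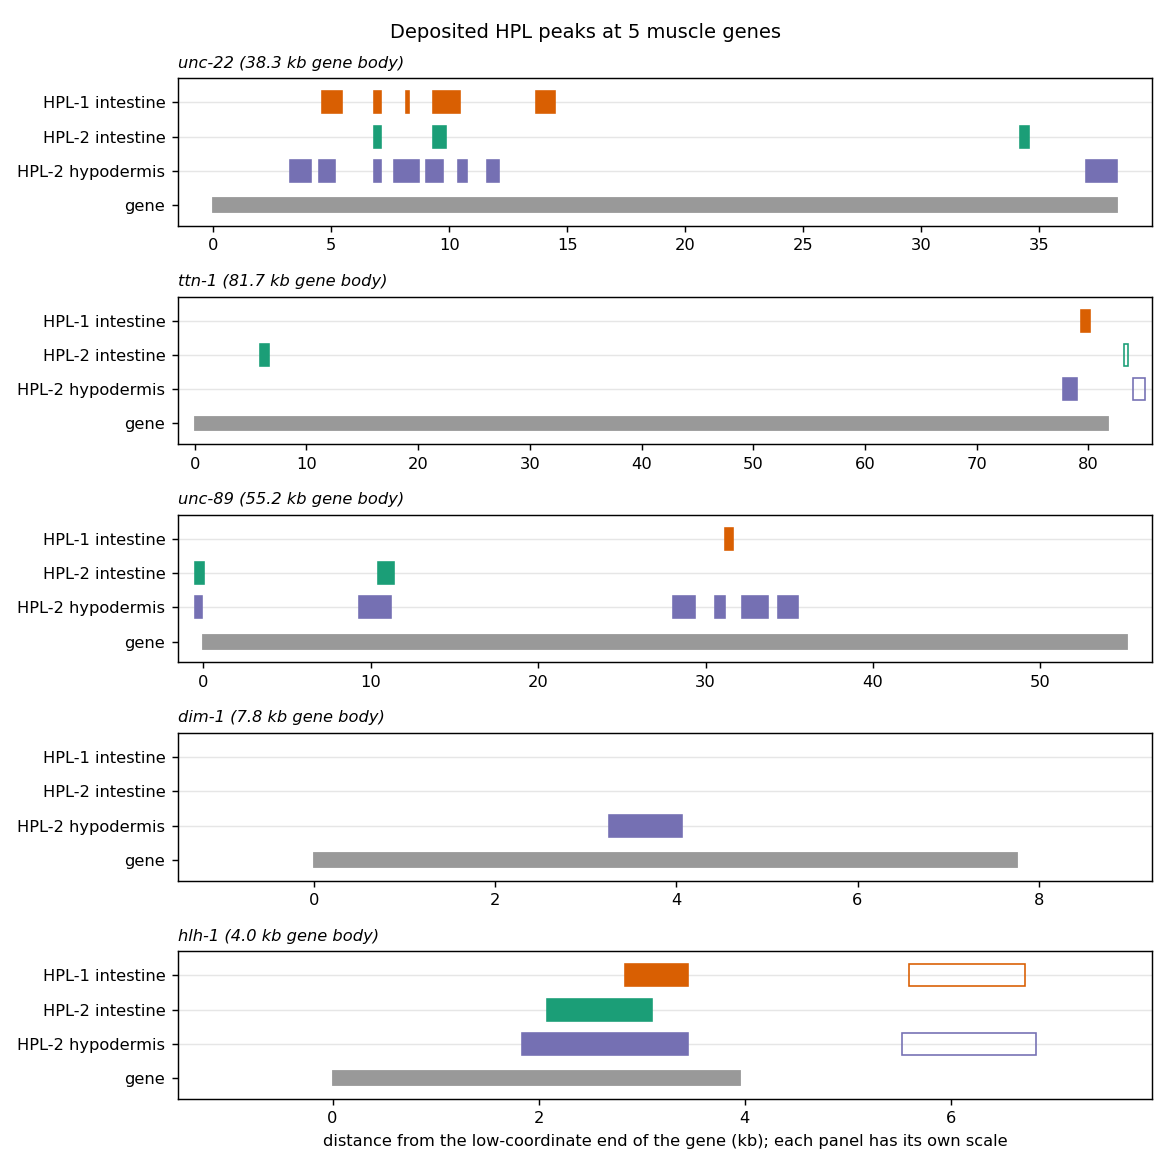
Peaks of the 3 deposited lists along each gene, with distance from the low-coordinate end of the gene in kb on the horizontal axis and the gene body in grey. Filled boxes overlap the body or 1 kb on either side and open boxes lie just beyond; unc-22 holds 5, 3 and 8 peaks in the order of the tracks, ttn-1 1 in each track, and dim-1 a single hypodermis peak.

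The twitchin gene unc-22 carried the most peaks, 5 of HPL-1 in intestine, 3 of HPL-2 in intestine and 8 of HPL-2 in hypodermis. No protein-coding gene had more hypodermis peaks, and only ketn-1 had as many. With 5 HPL-1 peaks unc-22 stood behind unc-44 alone, which had 6 under the same rule. Its 3 HPL-2 intestine peaks were matched or passed by other genes, 83 genes with at least 3 when unc-22 is included. The peaks covered 8.24%, 3.36% and 15.3% of its body for intestinal HPL-1, intestinal HPL-2 and hypodermal HPL-2. Among the 207 other genes of 0.5 to 2 times its length, the share covered was higher in 6, 40 and 8 genes, and the median share was 0 in each list.

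The unc-22 peaks were crowded into the part from 3.24 to 14.5 kb, which held all 5 HPL-1, 2 of 3 HPL-2 intestine and 7 of 8 hypodermis peaks. The HPL-1 peaks began with 11977301 to 11978139 (score 0.75), followed by 11979521 to 11979824 (0.66) and the narrow 11980883 to 11980980 (0.49, the weakest of the 5). The strongest, 11982007 to 11983141, scored 1.31 with an FDR of 8.65e-13 and ranked 16 of 1346 in its list, and the last, 11986383 to 11987161, scored 0.98. Scores are the authors' own, on a scale the lists do not state, and are ranked here only within a list. The 5 HPL-1 peaks thus occupied a span of 9.86 kb of a 38.3 kb gene, and 2 of them were among the top 10% of HPL-1 scores.

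HPL-2 in hypodermis filled the same part of unc-22 with 7 of its 8 peaks. They ran from 11975936 to 11984812, with scores from 1.21 to 2.05 and gaps of 282 to 1654 bp between neighbours. The highest of them was 11979521 to 11979824, a stretch of 304 bp that scored 2.05 and ranked 304 of 1572. That stretch, with the same start and end, was also an HPL-1 intestine peak (0.66) and an HPL-2 intestine peak (1.37, rank 250 of 1665). Its FDR was 0.0137 in hypodermis, 0.0213 for HPL-1 and 0.0123 for HPL-2 in intestine, so no list kept it at 0.01. DamID resolves only GATC fragments, so edges at the same base, here and below, are not read as a shared binding site. A second HPL-2 intestine peak stood at 11982007 to 11982579 (0.93), and a hypodermis peak at 11981706 to 11982424 (1.33).

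Beyond 14.5 kb, unc-22 was free of peaks of any list for 19.7 kb, 51.5% of its body. The far end then held 2 isolated peaks. An HPL-2 intestine peak stood at 12006881 to 12007289 (score 0.83, FDR 0.00163). A hypodermis peak at 12009704 to 12011000 (score 1.64, FDR 0.000579) ended 0.007 kb inside the high-coordinate end, and also covered sequence of ZK617.11, ZK617.23 and ZK617.26, genes that lie within unc-22. The number of hypodermis peaks at unc-22 depends on how neighbours are counted. It was 3 at an FDR of 0.01 or below, 3 with peaks within 1 kb of each other joined, and 5 with lists of equal size, and after joining 5 genes had more. The HPL-1 number was 3 at the stricter FDR and 5 after joining, when no gene had more. The gaps between these HPL-1 peaks were 1381, 1058, 1026 and 3241 bp. Those of 1058 and 1026 bp barely exceed the 1 kb limit, so the joined HPL-1 count and its rank depend on that limit.

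**Figure D2:**
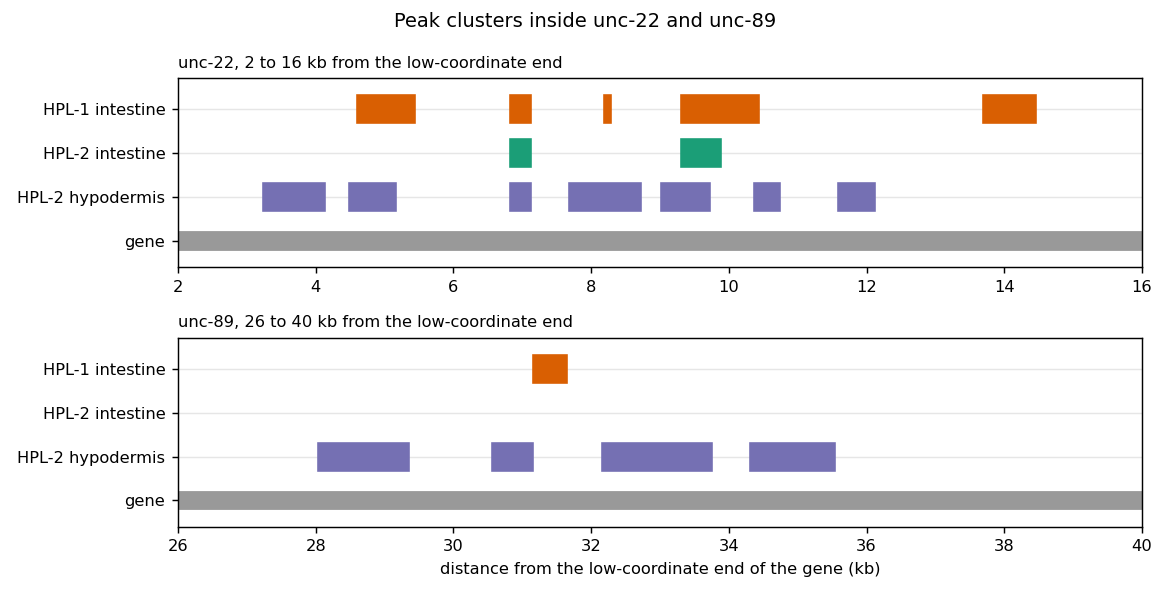
The clustered parts of unc-22 (2 to 16 kb) and unc-89 (26 to 40 kb), with distance from the low-coordinate end in kb on the horizontal axis and 1 track per list. In unc-22 the peak of 304 bp that starts 6.82 kb from the end is present in all 3 tracks, with an FDR above 0.01 in each. In unc-89 the HPL-1 peak begins at the base where a hypodermis peak ends.

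The obscurin-related gene unc-89 held 6 hypodermis peaks, 2 HPL-2 intestine peaks and 1 HPL-1 peak. The other genes with 6 or more hypodermis peaks were unc-22, ketn-1, cpna-1 and C14B4.2. Hypodermis peaks covered 12.0% of the unc-89 body, a share that 3 of the 75 other genes of 0.5 to 2 times its length exceeded, against 1.80% for HPL-2 and 0.888% for HPL-1 in intestine. The peaks formed 3 groups along the gene.

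At the low-coordinate end of unc-89, HPL-2 peaks of both tissues began at the same base, 4035244. In intestine the peak ran to 4035777 (score 1.54, rank 136 of 1665) and overlapped the body by 76 bp. In hypodermis it ran to 4035661 (score 1.62, rank 822 of 1572) and stopped 40 bp short of the body. The next group was the strongest of the gene for HPL-2 in each tissue. Its intestine peak, 4046164 to 4047083, scored 1.72 and ranked 70 of 1665, and its hypodermis peak, 4045033 to 4046901, scored 2.33 and ranked 137 of 1572. They shared 738 bp, 10.5 kb from the low-coordinate end, and were the only peaks there, as HPL-1 had none.

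The third group lay in the middle of unc-89, where HPL-2 in intestine had no peak. The hypodermis list had 4 peaks between 4063741 and 4071244, with scores of 1.68, 1.62, 1.64 and 1.70 and widths of 600 to 1606 bp. The third of them, 4067853 to 4069458, had the lowest FDR of the hypodermis peaks at the gene (1.91e-06). The only HPL-1 peak of unc-89, 4066859 to 4067348 (score 0.72, FDR 0.00130), filled part of the gap between the second and the third. It began at the last base of the second and met it by 1 bp, so the HPL-1 and hypodermis peaks stood side by side here. From 4071245 to the high-coordinate end, 19.6 kb or 35.6% of the body, no list had a peak. With peaks within 1 kb of each other joined the hypodermis count at unc-89 was 4, and at an FDR of 0.01 or below it was also 4.

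The titin-like gene ttn-1 was the longest of the 5, yet it held few peaks. There was 1 in each list, and they covered 1.01% (HPL-1), 0.973% (HPL-2 in intestine) and 1.57% (HPL-2 in hypodermis) of its body. Among the 15 other genes of 0.5 to 2 times its length, 40%, 60% and 46.7% had a peak in the same order. The share covered was higher in 4, 7 and 6 of these genes, and their median share was 0%, 0.0866% and 0%. The 3 peaks did not overlap. The HPL-2 intestine peak stood near the low-coordinate end, at 6126726 to 6127520 (score 0.97, FDR 0.0123). Near the other end stood the hypodermis peak at 6198632 to 6199916 (score 1.38, rank 1286 of 1572) and the HPL-1 peak at 6200217 to 6201040 (score 0.58, rank 934 of 1346). Between these ends, 71.1 kb or 87.0% of the body, no list had a peak.

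Just outside the 1 kb limit of ttn-1 lay 2 further peaks past its high-coordinate end. An HPL-2 intestine peak began 1434 bp beyond the body (6204067 to 6204464, score 0.64), and a hypodermis peak began 2234 bp beyond it (6204867 to 6205922, score 1.71), over the pseudogene W06H8.4. At an FDR of 0.01 or below the HPL-2 intestine peak inside ttn-1 was lost, and the other peaks inside the gene were kept.

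For dim-1 the lists held a single peak. HPL-2 in hypodermis stood at 8053719 to 8054532 on chromosome X, in the middle of the gene, with a score of 2.08, an FDR of 0.000579 and a rank of 278 of 1572. It covered 10.5% of the body, 814 bp. The nearest HPL-1 intestine peak lay 25.8 kb away (score 0.62) and the nearest HPL-2 intestine peak 91.5 kb away (score 0.61). Among the 4142 genes of 0.5 to 2 times the length of dim-1, 11.5% had a hypodermis peak. Whether the tissues differ at dim-1 was not tested, since a list that lacks a peak gives no value there.

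The muscle regulator hlh-1 had 1 peak in each list, and these overlapped. The hypodermis peak was the widest, 4520411 to 4522019 (1609 bp, score 1.97, FDR 7.76e-06, rank 372 of 1572), and covered 40.7% of the body. It enclosed the HPL-2 intestine peak, 4520655 to 4521676 (1022 bp, score 0.98, FDR 0.0362), and the HPL-1 intestine peak, 4521409 to 4522019 (611 bp, score 0.79, FDR 0.0129), which ended at the same base. The peaks thus lay 1.84 to 3.44 kb from the low-coordinate end, and the first 1.84 kb of the gene had none. At an FDR of 0.01 or below only the hypodermis peak of hlh-1 was left.

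Just outside the limit of hlh-1 lay a pair of overlapping peaks past the high-coordinate end. The hypodermis peak 4524100 to 4525398 (score 1.63) began 1573 bp beyond the body and enclosed the HPL-1 peak 4524167 to 4525285 (score 0.69), which began 1640 bp beyond it. Both covered sequence of B0304.2 and of sra-35, a gene of the chemoreceptor family, and HPL-2 in intestine had no peak there. Among the 8645 genes of 0.5 to 2 times the length of hlh-1, 1.24% had peaks in all 3 lists.

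Peak coverage was compared with that of the surroundings. Over the whole genome, taken to the furthest gene or peak end of each chromosome, peaks covered 0.952% for HPL-1, 1.35% for HPL-2 in intestine and 1.74% for HPL-2 in hypodermis. In the 100 kb on each side of the window of unc-22, HPL-2 in hypodermis had 0 peaks, whereas it covered 14.6% of the window itself. HPL-1 covered 0.781% of these surroundings and 7.83% of the window, and HPL-2 in intestine 0.486% and 3.19%. Around unc-89 the hypodermis list covered 1.22%, against 12.3% of the window, and the HPL-2 intestine list 0.274% against 2.54%. HPL-1 was the exception at unc-89, with 1.57% of the surroundings and 0.857% of the window. Around hlh-1 the shares were 0.619%, 0.222% and 1.56%, against 10.3%, 17.2% and 27.0% of its short window, and around dim-1 the hypodermis list had 0 peaks. At ttn-1 window and surroundings were closer, with 0.984% against 0.59% for HPL-1, 0.95% against 0.199% for HPL-2 in intestine and 1.53% against 0.528% for HPL-2 in hypodermis. A window that was chosen for its peaks tends to exceed its surroundings, so these values describe how local the peaks are.

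**Figure D3:**
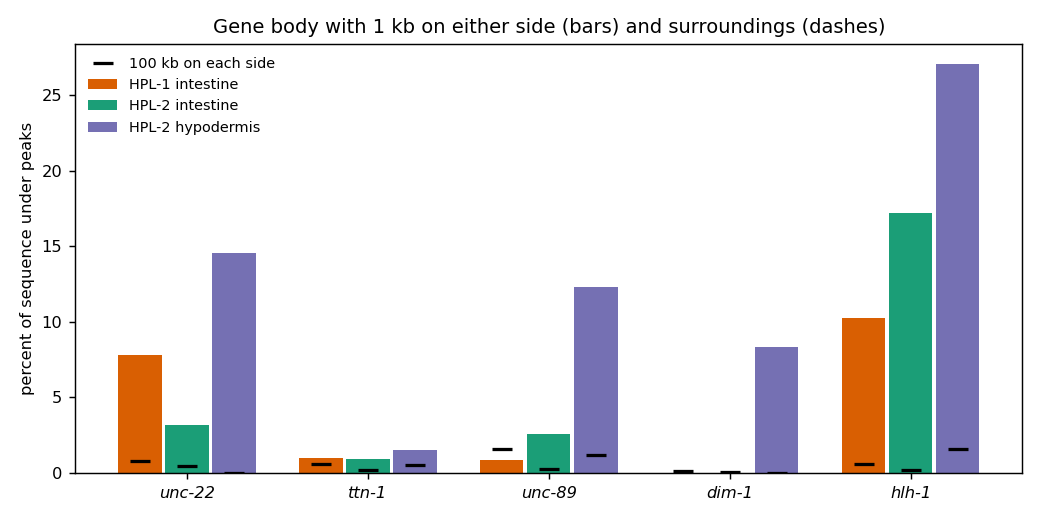
Percent of sequence under peaks in the gene body with 1 kb on either side (bars, 1 per list) and in the 100 kb on each side of that window (black dashes). HPL-2 in hypodermis reaches 27.0% at hlh-1, 14.6% at unc-22 and 12.3% at unc-89, with 0 to 1.56% in the surroundings of these genes.

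Scores of the peaks at the 5 genes were spread over much of each list. The median score was 0.735 for the 8 HPL-1 peaks against 0.66 over the whole list, 0.98 for the 7 HPL-2 intestine peaks against 0.95, and 1.64 for the 17 hypodermis peaks against 1.65. Above the median of their list were 5 of 8, 5 of 7 and 7 of 17. In the top 10% of their list were 2 HPL-1 peaks, both in unc-22, 2 HPL-2 intestine peaks, both at unc-89, and 1 hypodermis peak, also in unc-89. Median widths were 695, 573 and 896 bp, against 616, 678 and 948 bp over the whole lists. In unc-22 the hypodermis peaks were many but mostly of middling or low score, and 3 of the 8 ranked 1379, 1511 and 1535 of 1572.

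**Figure D4:**
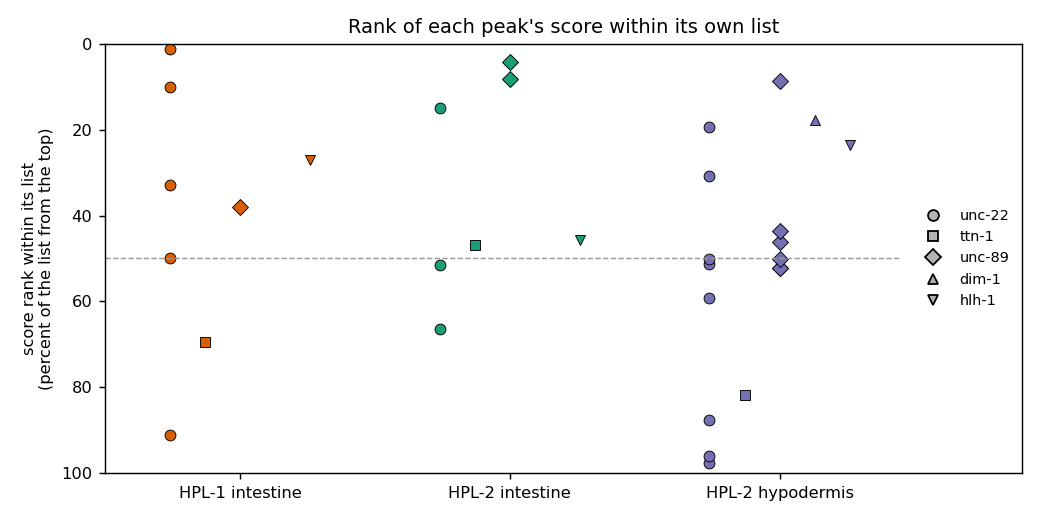
Rank of each peak's score within its own list, in percent from the top (vertical axis, 0 is the highest score), by list and gene, with the dashed line at the middle of a list. The highest placed are the unc-22 HPL-1 peak at rank 16 of 1346 and the unc-89 HPL-2 intestine peak at rank 70 of 1665, and the 8 hypodermis peaks of unc-22 reach down to rank 1535 of 1572.

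The tissues could be compared for HPL-2 without a shared control group. Of the 7 HPL-2 intestine peaks at the 5 genes, 5 overlapped a hypodermis peak, and these were 2 in unc-22, 2 at unc-89 and that of hlh-1. In the whole HPL-2 intestine list the share was 28.8%. In the other direction 5 of 17 hypodermis peaks overlapped an HPL-2 intestine peak, and 31.2% did in the whole list. In sequence, the shared 2900 bp were 63.6% of the HPL-2 intestine and 17.4% of the hypodermis sequence at these genes. Intestinal HPL-1 and hypodermal HPL-2 also have separate controls, and 6 of 8 HPL-1 peaks met a hypodermis peak, 1 of them by 1 bp, against 27.3% in the whole HPL-1 list. They shared 2078 bp, 40.9% of the HPL-1 and 12.5% of the hypodermis sequence. Most of the HPL-1 peaks that met a hypodermis peak lay in the crowded part of unc-22. The genes were chosen with their peaks known, so in either comparison a share above that of the whole list is not read as a result. Both intestine lists were called against the same GFP::Dam group, so a coincidence of their positions, such as that of the 304 bp peak in unc-22, is not read as a result.

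Peaks were counted at the genes of 3 other muscle immunoglobulin-repeat proteins, all longer than 20 kb. These are ketn-1 (kettin, an actin-binding relative of titin), unc-52 (perlecan, a proteoglycan of the muscle basement membrane) and him-4 (hemicentin, an extracellular matrix protein). HPL-1 and HPL-2 in intestine lay at ketn-1 and unc-52, and HPL-2 in hypodermis at ketn-1 and him-4, 2 of 3 in each list, where 27.5%, 41.5% and 35.8% of all genes of 20 kb or more had a peak. At ketn-1, 25.9 kb long, HPL-2 had 10 peaks in intestine, the most of any protein-coding gene, and 8 in hypodermis, with hypodermis scores up to 2.87 (2788604 to 2790197 on chromosome V, rank 22 of 1572), and HPL-1 had 3. Many HPL-2 peaks of ketn-1 lay within 1 kb of a neighbour, so its counts also depend on how neighbours are counted. With such peaks joined, no gene had more than 5 HPL-2 peaks in either tissue. The intestine peaks of ketn-1 included one of 5118 bp (2799132 to 2804249, score 1.53), wider than any peak at the 5 genes. In contrast with unc-22, unc-52 had 3 HPL-1 and 4 HPL-2 intestine peaks and no hypodermis peak, and him-4 had 2 hypodermis peaks and none in the intestine lists.

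Among 19 genes for M-line and dense body proteins, which link the filament lattice to the cell membrane, 1 had an HPL-1 peak, 3 an HPL-2 intestine peak and 5 a hypodermis peak. Over all protein-coding genes the shares were 6.93%, 8.31% and 8.1%, so 1 of 19 is near the background. The 3 and 5 of 19 are higher and were not tested. The 5 were cpna-1, a copine-domain protein gene with 6 hypodermis and 3 HPL-2 intestine peaks, the LIM-domain protein gene unc-95, the alpha-actinin gene atn-1, the kinase gene unc-82 and unc-96, whose product binds paramyosin. Of these, cpna-1 (21.8 kb) and unc-82 (20.2 kb) are long, and 35.8% of genes of 20 kb or more had a hypodermis peak. The HPL-2 intestine peak of atn-1 lay in the flank alone, 929 bp from the body. The unc-95 gene alone had peaks in all 3 lists, and its peak 14384172 to 14385134 on chromosome I was the same interval in HPL-1 intestine (score 0.75) and HPL-2 hypodermis (1.79). No peak stood at the other 14, among them unc-97, unc-112, pat-3, pat-4 and deb-1, which encode attachment proteins. Of 7 other regulators of mesoderm and muscle, sem-2 and mef-2 had an HPL-1 peak, hnd-1 an HPL-2 intestine peak and none a hypodermis peak, and at a background of 8.1% a count of 0 of 7 is no result. Of the full 8, hlh-1, chosen for its peaks, was thus the 1 in the hypodermis list.

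Genes typical of the profiled tissues were compared under the same rule. Of 8 intestine genes found in the gene table, vha-6 had an HPL-1 peak in its flank (score 0.48) and act-5 an HPL-2 intestine peak (0.63), and none had a hypodermis peak. Of 9 hypodermis genes, 3 had an HPL-1 peak (elt-3, col-10 and bli-1), 4 an HPL-2 intestine peak (elt-3, nhr-23, nhr-25 and bli-1) and 0 a hypodermis peak. The HPL-1 peaks of col-10 and bli-1 lay in the flank alone, 583 and 347 bp from the body. Beside the all-gene shares of 6.93%, 8.31% and 8.1%, the intestine gene counts and the 0 of 9 are near the background. The 3 and 4 of 9 are higher, but the list is short and was chosen with earlier results known. Whether they differ from the 0 of 9 was not tested.

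**Figure D5:**
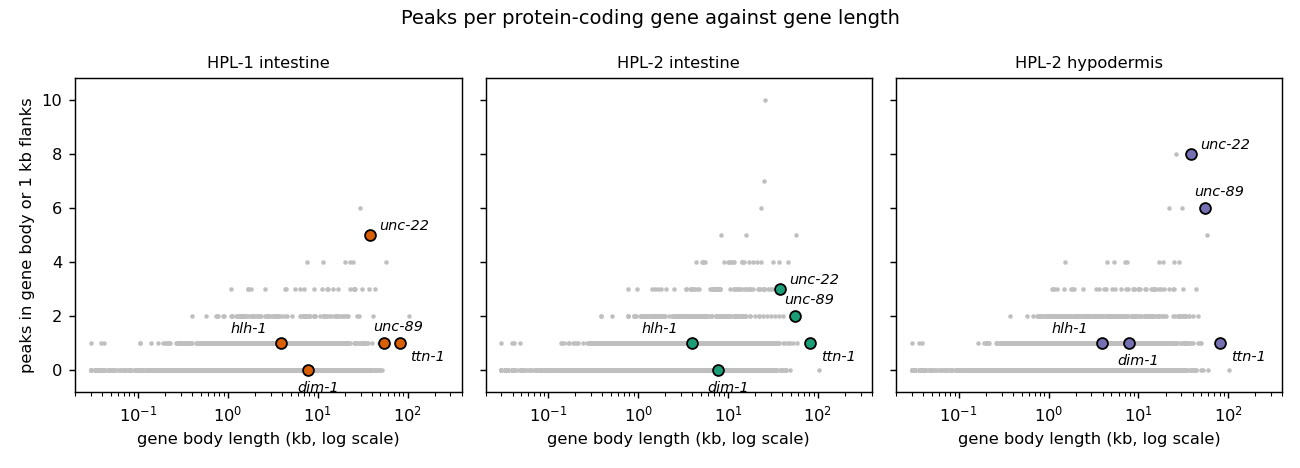
Peaks in the gene body or 1 kb flanks of every protein-coding gene (grey points) against gene body length in kb on a log scale, 1 panel per list, with the 5 genes coloured and named. In the hypodermis panel unc-22 (8 peaks) and unc-89 (6) stand near the top, as do the grey points of ketn-1, cpna-1 and C14B4.2. The gene ttn-1, longer than unc-22 and unc-89, has 1 peak in every panel.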

How the data were processed

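DamID-seq libraries were made from 200 ng of genomic DNA by DpnI and DpnII digestion, per the labels' protocols. The submitters' processing notes name Bowtie2 2.3.4, SAMtools 1.9, R 3.4.3 and the WBcel235/ce11 assembly. The deposited file names say that each list was called on an average relative to Dam at an FDR of 0.05; the sources used here name neither the peak caller nor the depth of each library. The score of each peak in the deposited lists is the authors' own, and its scale is not stated. Start, end and FDR are the other deposited values.

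Each peak was compared with the RefSeq gene table for WBcel235 (19971 nuclear protein-coding genes), using pandas 2.3.3 in Python 3.11.15, with overlap code tested on simulated data. The lists give no replicate error, and DamID resolves only GATC fragments. The genes and gene lists were chosen with earlier results of these data known, so no test was run. All 5 genes and every gene of the lists with a peak could be named; opt-2 had no match in the table. For each of the 5 genes, the 2 genes most like it in covered share were also named. Alternatives were no flank, 2 kb flanks, an FDR of 0.01, 50% of the peak inside the window, lists of equal size and, added after seeing the data, joining peaks within 1 kb.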

Additional observations from a re-analysis of the deposited data

How the results depend on the processing

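With gene bodies alone, 2 kb flanks, 50% of the peak inside the window or lists of equal size, every count of genes with a peak, in each list and in all 3, was as reported, and every total of peaks over the 5 genes was within 1.5 times of it. Single genes moved more: hypodermis peaks at unc-22 fell from 8 to 5 with lists of equal size, and 2 kb flanks raised HPL-2 intestine at ttn-1, HPL-1 at hlh-1 and hypodermis at hlh-1 from 1 to 2 peaks each. At an FDR of 0.01 or below, genes with a peak in all 3 lists fell from 4 to 2 (unc-22 and unc-89). Genes with an HPL-2 intestine peak fell from 4 to 2 and genes with an HPL-1 peak from 4 to 3. No stretch covered by all 3 lists was left at these genes, as each rested on a peak with an FDR above 0.01. Peaks at the genes were then 5 for HPL-1 intestine, 4 for HPL-2 intestine and 10 for HPL-2 hypodermis, and this setting keeps 53.7%, 65.0% and 59.5% of the lists. Joining peaks within 1 kb also left 10 hypodermis peaks. The share of the windows covered, 2.58% for HPL-1 intestine, was 2.72% for bodies alone, 2.63% with 2 kb flanks and 2.07% at the stricter FDR. For HPL-2 intestine, at 2.31%, it was 2.19%, 2.39% and 1.24% in the same order. For HPL-2 hypodermis, at 8.44%, it was 8.67%, 8.24% and 6.33%, and 7.61% with lists of equal size. No paired analysis was possible because each list is, by its file name, an average with no values per replicate, and for the same reason no replicate could be left out. The depth behind a peak is unknown, so a missing peak cannot be read as missing binding.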

Other observations

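For each of the 5 genes, the 2 most similar genes were sought among protein-coding genes at least 0.5 times as long, by the summed absolute difference in the percent of body covered over the 3 lists. Nearest to ttn-1 was dig-1, a giant extracellular matrix protein gene of 48.5 kb, with 1.01%, 1.01% and 1.47% covered by intestinal HPL-1, intestinal HPL-2 and hypodermal HPL-2 (difference 0.140 points), followed by nhr-27 (2.74). Nearest to unc-22 were frm-1, with 9.21%, 5.13% and 20.3% covered (7.75), and T28B11.1 (9.24), and nearest to unc-89 were spsb-1 (2.10) and phkb-1 (4.03), neither of which had HPL-1 over its body. Nearest to dim-1 were mob-2 (0.0332) and glo-4 (0.0924), both covered in the hypodermis list alone. Nearest to hlh-1 among 10146 genes were the kinesin gene osm-3 (10.6) and the galectin gene lec-2 (11.7). The osm-3 body was covered by 14.2%, 32.6% and 43.3%, against 15.5%, 25.9% and 40.7% for hlh-1. Differences in points can be larger where more of the body is covered, so they are not compared between the 5 genes.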
